A study of Triticum aestivum with 24 samples.

Results

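Of 37516 probe sets that could be tested in flag leaves of 2 bread wheat cultivars, 195 were higher in dry than in wet leaves by at least 2-fold in every cultivar and at every stage measured. They are described here as the core dry-induced probe sets. A probe set is a group of short probes on the array that together measure 1 transcript or a few related transcripts. The members were chosen by their measured values: the signal had to be above 69 on at least 3 of 24 arrays, and the dry mean of log2(signal + 11.71) had to exceed the wet mean by at least 1 in each of 4 settings, which are the 2 cultivars at 2 stages. Of 61290 probe sets on the array, 111 were control probe sets and 37516 of the other 61179 passed the signal filter. A difference of at least 1 was reached by 6.45% of these in TAM 112 at grain filling, 4.64% in TAM 111 at grain filling, 2.22% in TAM 112 at heading and 2.16% in TAM 111 at heading, and all 4 were reached by 199 (0.53%). Of them, 4 were left out by identifier: they are probe sets of the dehydrin gene Rab15 and of the fructan exohydrolase gene 6-FEH. Because the dry minus wet difference in each setting chose the members, these differences are given as a description, with no test.

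The arrays measured RNA of flag leaves from the cultivars TAM 112 and TAM 111, both winter wheats of the Texas breeding programme, grown in a greenhouse. The 8 groups, of 3 arrays each, were TAM 112 at grain filling dry and wet, TAM 111 at grain filling dry and wet, TAM 112 at heading dry and wet, and TAM 111 at heading dry and wet. Field capacities of 90% and 50% appear in the labels as the watering levels, but neither is tied there to a treatment name. They do not say whether the 3 replicates came from separate plants, so the spread between them may be technical.

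The flag leaf is the uppermost leaf of the wheat stem and feeds the growing grain with much of its sugar. When water runs short, leaves accumulate the hormone abscisic acid, which closes stomata and switches on genes for protective proteins such as dehydrins and other late embryogenesis abundant proteins, for compatible solutes and for the release of stored fructans. Heading, when the ear emerges, comes before grain filling, when the leaf sends its sugars and later its nitrogen to the grain. Nearly all probe sets of the wheat array come from expressed sequence tags, and most have no gene name, so the set is described by its members' values.

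Only 24 of the 195 members were paired with a gene by the platform's annotation, and these belong to 17 genes. All 17 were marked as protein coding in the RefSeq annotation of the assembly IWGSC CS RefSeq v2.1, and 0 of them had a name beyond a locus number. For the other 171 members no gene was given. No role is assigned to a member here for that reason. The suffix of an identifier tells how its probes were chosen: those ending in _s_at or _x_at can bind transcripts of several genes, which matters in wheat, whose genome holds several closely related copies of most genes. Of the members, 14.9% ended in _x_at, against 13.8% of all tested probe sets, and 22.1% had an identifier that starts with TaAffx, against 38.1%.

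The deposited signals were scaled to a common target, and the mean after trimming 2% at each end was 500.1 on every array. The 34 probe sets for photosynthesis genes summed to between 216800 and 342500 signal units per array. The 11 for grain storage proteins summed to between 269.9 and 753.4. The 2 for profilin, listed as a marker of anther and pollen, summed to between 32510 and 49020. Their mean signals over all arrays were 13303 and 26191, and whether any of this came from anther or pollen was not tested. Photosynthesis transcripts were thus abundant on every array, but the sums cover different numbers of probe sets. In the sum for photosynthesis, dry leaves of TAM 112 at grain filling ranged from 225000 to 241000, against 303900 to 342500 in wet leaves, and dry leaves of TAM 111 at that stage ranged from 216800 to 224800, against 265500 to 322400 in wet leaves. The part of this in the members' differences was not tested, and in whole leaves fewer cells of a type and less RNA per cell cannot be told apart. Replicate 2 of TAM 111 at heading dry, at heading wet and at grain filling wet lay between the cultivars on the second principal component of all tested probe sets. No 2 arrays held identical values.

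Replicate 1 of dry TAM 112 at heading stood apart from its group in the members. The median member, centred on its mean over the 24 arrays, was at 1.37 on the log2 scale on this array, and at 0.56 and 0.43 in replicates 2 and 3. This array was the highest of the 3 for 167 of 195 members, against 33% of all tested probe sets, and it exceeded the next array by over 2-fold for 39 members, where 2.21% of all tested probe sets did so. Wet replicate 3 of TAM 112 at heading did so for 37 members (3.04% of all tested) and wet replicate 2 of TAM 112 at grain filling for 27 (1.64%). The log2 ratio of 3' to 5' actin control signal, a sign of RNA quality, was 2.23 on dry replicate 1 of TAM 112 at heading, and in replicates 2 and 3 it was -0.42 and 0.57. Over the 24 arrays it ran from -0.42 to 3.89. At heading in TAM 111 it was 1.98, 2.24 and 1.05 in dry leaves, against 0.32, 0.22 and -0.18 in wet leaves, which did not overlap. The other group means were 1.11 in dry and 1.2 in wet TAM 112 at grain filling, 2.2 in dry and 1.5 in wet TAM 111 at grain filling, and 0.79 in dry and 0.61 in wet TAM 112 at heading. Whether RNA quality had a part in the members' levels was not tested. Without replicate 1 of dry TAM 112 at heading, 175 of the 195 members still met the thresholds, and the median difference in TAM 112 at heading was 1.54 in place of 1.87. Some arrays of TAM 111 at heading mattered more to membership. Without wet replicate 2 of that setting 159 members still met the thresholds, without dry replicate 3 170, and without dry replicate 1 173. Leaving out at least 1 of the 6 arrays of a setting, each in turn, moved the fold change by over 1.5 times for 30 members in TAM 112 at grain filling, 20 in TAM 111 at grain filling, 57 in TAM 112 at heading and 26 in TAM 111 at heading. Such omissions brought 13, 6, 39 and 69 members below 2-fold in the same order of settings.

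As a set, the members were highest in dry leaves at grain filling and differed little between cultivars or stages in wet leaves. The centred median of the members averaged 1.82 ± 0.05 in dry TAM 112 at grain filling, against -1.0 ± 0.32 in wet leaves (SD, n = 3 arrays each). In TAM 111 at grain filling it averaged 1.54 ± 0.16 in dry leaves, against -1.03 ± 0.14 in wet leaves. At heading it was lower in dry leaves, at 0.78 ± 0.51 in dry TAM 112, against -1.21 ± 0.25 in wet leaves. In TAM 111 at heading the averages were 0.33 ± 0.22 in dry leaves and -1.30 ± 0.21 in wet leaves. No dry array overlapped a wet array in this summary, and the dry arrays at heading other than TAM 112 replicate 1 lay below every dry array at grain filling. The same median over all tested probe sets stayed between -0.10 and 0.08.

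**Figure D1:**
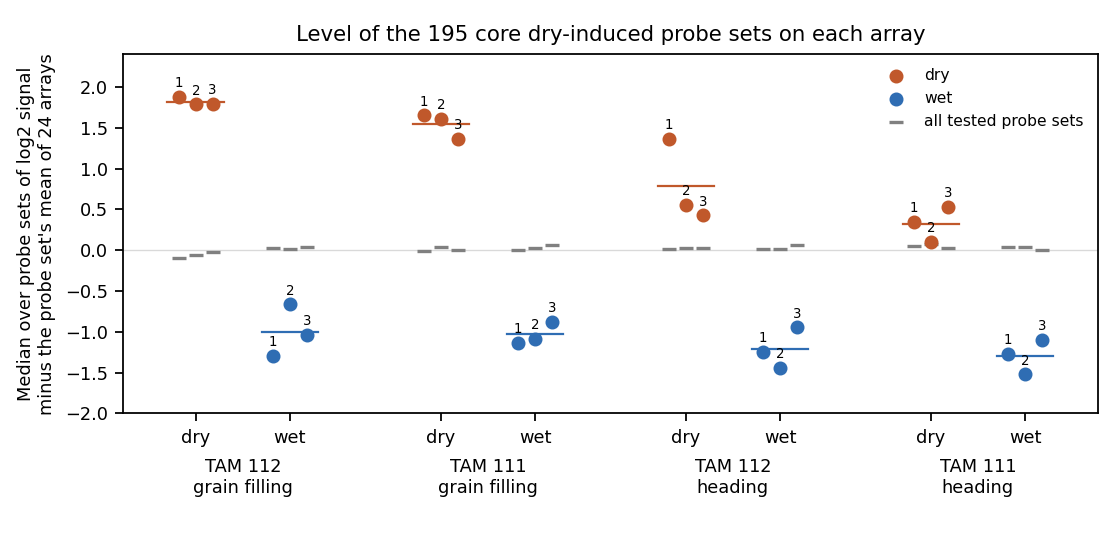
Median over the 195 members of the log2 signal minus each probe set's mean of 24 arrays, per array, for dry (left of each pair) and wet leaves; numbers give the replicate, horizontal lines the mean of 3 arrays, and grey dashes the same median over all tested probe sets. Dry arrays sit above wet arrays in every cultivar and stage, and replicate 1 of dry TAM 112 at heading (1.37) lies above its 2 companions (0.56 and 0.43).

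The size of the difference followed the stage more than the cultivar. The median member was 6.87-fold higher in dry than in wet leaves of TAM 112 at grain filling and 5.71-fold higher in TAM 111 at that stage, with medians of 2.78 and 2.51 on the log2 scale. At heading the medians were 3.65-fold (1.87) in TAM 112 and 2.76-fold (1.46) in TAM 111. Over all tested probe sets the medians were -0.11, -0.03, -0.0047 and 0.03 in the same 4 settings. Differences of at least 4-fold were seen for 147 members (75.4%) in TAM 112 at grain filling, 139 (71.3%) in TAM 111 at grain filling, 90 (46.2%) in TAM 112 at heading and 44 (22.6%) in TAM 111 at heading. Of all tested probe sets, 1.73%, 1.07%, 0.336% and 0.149% did so in the same order. Such differences were thus more common at grain filling among all tested probe sets too. Without replicate 1 of dry TAM 112 at heading, the count of 90 was 62.

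The lowest of the 3 dry arrays was above the highest of the 3 wet arrays for 189 members in TAM 112 at grain filling and 193 in TAM 111 at grain filling, where 16.7% and 17% of all tested probe sets did so. At heading this held for 170 members in TAM 112 and 175 in TAM 111, where the shares of all tested probe sets were 11.5% and 12.9%. In all 4 settings together the arrays did not overlap for 151 members (77.4%), where 1.73% of all tested probe sets met this condition. The same differences chose the members, so these counts only describe how evenly the 3 arrays of a group carried them.

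Near the threshold lay Ta.3749.1.S1_at, Ta.3828.3.A1_x_at and Ta.14301.1.S1_at, whose smallest difference was 1.01 in each case. Just outside were Ta.13403.1.S1_at at 0.99, TaAffx.80337.1.S1_at at 0.99 and Ta.6111.1.S1_at at 0.98. The number that met the thresholds was 245 with a pseudocount of 1, among them all 195 members, and 133 with a pseudocount of 46.84, all of them members. So 62 members met the thresholds with 11.71 and not with 46.84, and fold changes of probe sets near background depend on this constant.

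Ta.2638.1.S1_at had the largest smallest difference of all members. In TAM 112 at grain filling its signals were 20291, 24042 and 18227 in dry leaves, against 15.7, 101 and 40.2 in wet leaves. In TAM 111 at grain filling they were 7475, 6797 and 4103 in dry leaves, against 9.5, 19.2 and 31.8 in wet leaves. These were 381-fold and 195-fold differences, from a wet level that was near background in both cultivars. In TAM 112 at heading the signals were 7353, 454 and 515 in dry leaves, against 67.9, 7.01 and 59 in wet leaves. In TAM 111 at heading they were 394, 338 and 735 in dry leaves, against 20.5, 54.7 and 4.56 in wet leaves. Dry and wet arrays did not overlap in any setting, and replicate 1 of dry TAM 112 at heading was far brighter than the other 2. The fold change at heading was 25.8 in TAM 112, or 10.5 without that array, and 14.5 in TAM 111. The standard error of each difference was 0.77 on the log2 scale.

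TaAffx.70660.1.S1_at was over 10-fold higher in dry leaves in every setting. Its signals in TAM 112 at grain filling were 576, 357 and 859 in dry leaves, against 16.6, 94.4 and 7.13 in wet leaves, and in TAM 111 at grain filling 854, 638 and 511 in dry leaves, against 26, 5.8 and 26.8 in wet leaves. In TAM 112 at heading they were 4032, 2048 and 886 in dry leaves, against 55, 125 and 439 in wet leaves, and in TAM 111 at heading 877, 601 and 934 in dry leaves, against 80.0, 33.4 and 90.4 in wet leaves. The fold changes were 15, 22.6, 12.2 and 10.7 in that order, with a standard error of 0.64 on the log2 scale. Its highest signals came from dry leaves at heading in TAM 112, unlike those of most members.

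The pair TaAffx.130061.1.S1_at and TaAffx.130061.1.S1_x_at, built on 1 sequence cluster, gave like values. The first had signals of 7877, 8977 and 8331 in dry leaves, against 64.3, 235 and 74.1 in wet leaves of TAM 112 at grain filling. In TAM 111 at grain filling its signals were 8067, 8045 and 8940.0 in dry leaves, against 57.8, 30.1 and 155 in wet leaves. The dry arrays at grain filling agreed closely with each other in both cultivars, and the 2 cultivars overlapped. At heading its dry signals were 5609, 2231 and 1945 in TAM 112, against 224, 118 and 271 in wet leaves, and 1879.5, 776 and 2322 in TAM 111, against 210.3, 59 and 196 in wet leaves. All dry arrays were above all wet arrays of this probe set. The fold changes of the pair were 71.6 and 63.4 in TAM 112 at grain filling, 106 and 85.9 in TAM 111 at grain filling, 14.2 and 20.3 in TAM 112 at heading, and 10.2 and 9.94 in TAM 111 at heading.

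Some members at the top of this ranking were bright in wet leaves too. Ta.26049.1.S1_a_at had signals of 22214, 23322 and 23611 in dry leaves, against 741, 1667 and 1025 in wet leaves of TAM 112 at grain filling. In TAM 111 at grain filling they were 17166, 16991 and 14062 in dry leaves, against 1374, 878 and 1299 in wet leaves. At heading the dry signals of TAM 112 were 15581, 6821 and 8229, against 1035, 1063 and 1240.2 in wet leaves. The wet arrays of this probe set stayed within a narrow range in all 4 settings while the dry arrays at grain filling stood above nearly all those at heading. Its fold changes were 21.1 and 13.7 at grain filling in TAM 112 and TAM 111, and 8.54 and 6.82 at heading in TAM 112 and TAM 111, with a standard error of 0.29 on the log2 scale.

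Ta.12477.1.S1_at and Ta.12053.1.A1_at were dim in wet leaves. Ta.12477.1.S1_at had signals of 1163, 702 and 634 in dry leaves, against 34.6, 35.9 and 29.2 in wet leaves of TAM 112 at heading and 635, 353 and 456 in dry leaves, against 117, 20.5 and 51.6 in wet leaves of TAM 111 at heading, which did not overlap. Its fold change was 30.2 in TAM 112 at grain filling, 19.7 in TAM 111 at grain filling, 18.2 in TAM 112 at heading and 7.49 in TAM 111 at heading. Ta.12053.1.A1_at differed less between stages, with fold changes of 8.9, 6.69, 11.2 and 7.29 in the same order of settings. For both, replicate 1 was again the highest dry array of TAM 112 at heading.

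Ta.12042.1.S1_at, Ta.29434.1.A1_at and Ta.12180.1.S1_at varied more widely between wet arrays. The wet signals of Ta.12042.1.S1_at ranged from 49.3 to 1758 over 12 arrays, both ends being from TAM 112, and its dry signals ranged from 1494 to 7635. Within each setting its dry and wet arrays did not overlap. Its fold changes were 8.42 in TAM 112 at grain filling, 16.8 in TAM 111 at grain filling, 8.62 in TAM 112 at heading and 9.28 in TAM 111 at heading, with a standard error of 0.76 on the log2 scale, and 3.52 in TAM 112 at grain filling without wet replicate 1. Ta.29434.1.A1_at had its largest fold change, 38.8, in TAM 111 at grain filling and its smallest, 7.85, in TAM 111 at heading. Ta.12180.1.S1_at had its largest, 19, in TAM 112 at grain filling and its smallest, 7.1, in TAM 111 at heading.

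**Figure D2:**
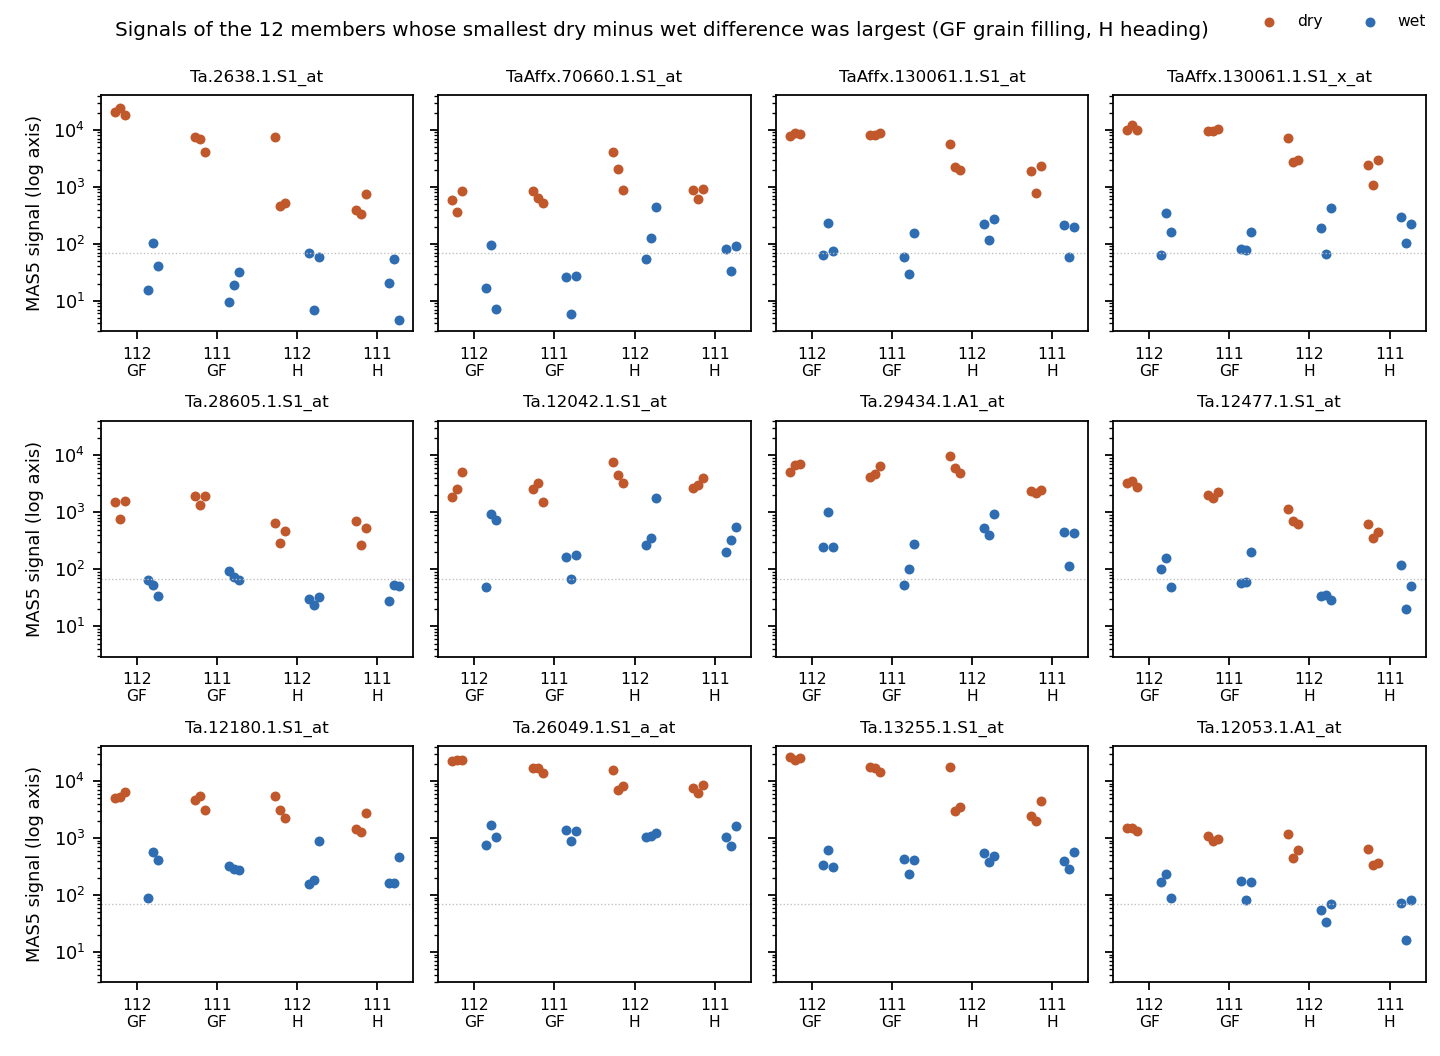
MAS5 signal on a log axis of the 12 members whose smallest dry minus wet difference was largest, 1 point per array, for TAM 112 and TAM 111 at grain filling (GF) and heading (H), dry left of wet; the dotted line marks the filter level of 69. Dry and wet points do not overlap within any setting of these 12, and Ta.2638.1.S1_at falls below the filter level in nearly all wet arrays.

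The members covered the whole range of brightness. Ranked by mean level among all tested probe sets, the median member lay at percentile 56.2, the dimmest at 1.11 and the brightest at 99.4. In wet leaves the mean signal was below 69 for 59 members in TAM 112 at grain filling, 57 in TAM 111 at grain filling, 70 in TAM 112 at heading and 74 in TAM 111 at heading. In dry leaves it was below 69 for 3, 2, 6 and 17 members in the same order. All 4 wet means were below 69 and all 4 dry means above it for 23 members, and 104 members were above 69 in all 8 groups. Whether fold changes in the last group depend less on the pseudocount was not tested. Single wet arrays of its members could still be near background. Ta.20175.1.A1_at, in this group, had a signal of 4.32 on wet replicate 1 of TAM 112 at grain filling. Its fold change in that setting was 167 with a pseudocount of 1 and 63.5 with 46.84.

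The brightest member was Ta.28472.1.S1_at, whose differences were among the smaller ones. Its signals in TAM 112 at grain filling were 43027, 39039 and 32763 in dry leaves, against 11871, 12834 and 11617 in wet leaves, and in TAM 111 at heading they were 36363, 35807 and 41552 in dry leaves, against 21057, 18025 and 12055 in wet leaves. Dry leaves stayed at about the same level at both stages, and wet leaves overlapped between stages. The fold change was 3.14 in TAM 112 and 2.97 in TAM 111 at grain filling, and 2.31 in TAM 112 and 2.28 in TAM 111 at heading. How far signals of this height are compressed at the top of the scale cannot be read from the deposited values.

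Ta.7091.1.S1_at, the second brightest, had signals of 49198, 43986 and 42776 in dry leaves, against 1676, 9864 and 4546 in wet leaves of TAM 112 at grain filling, and 41953, 38127 and 39816 in dry leaves, against 10241, 1523 and 3779.7 in wet leaves of TAM 111 at grain filling. Its wet arrays spread widely within each group at grain filling, and all of them were below the dry arrays. It was 10.7-fold and 10.2-fold higher in dry leaves at grain filling in TAM 112 and TAM 111, and 3.15-fold and 4.03-fold higher at heading. TaAffx.128555.1.S1_at followed with fold changes of 9.44 and 7.67 at grain filling and 4.55 and 3.89 at heading, again TAM 112 before TAM 111. The pair Ta.30802.1.A1_x_at and Ta.30802.1.A1_at had fold changes between 3.7 and 5.95 over the 4 settings. Ta.24515.1.S1_at, Ta.14301.1.S1_at and Ta.1337.1.S1_x_at complete the 8 brightest, with fold changes of 3.82, 4.22 and 7.47 in TAM 112 at grain filling.

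The dry minus wet difference was larger at grain filling than at heading in both cultivars for 148 members and larger at heading in both for 14. The median gain from heading to grain filling was 0.70 in TAM 112 and 0.97 in TAM 111 on the log2 scale, with medians of -0.08 and -0.05 over all tested probe sets. The difference was larger in TAM 112 than in TAM 111 at both stages for 116 members and larger in TAM 111 at both for 25. Without replicate 1 of dry TAM 112 at heading, the count of 116 was 82. At heading alone the difference was larger in TAM 112 for 154 members with all arrays, and for 111 without that one. Of all tested probe sets, 46.8% had a larger difference in TAM 112 at heading and 45% at grain filling. A larger difference at grain filling than at heading was seen for 45% of them in TAM 112 and 46.1% in TAM 111. Their shares for both stages or both cultivars together are not given here. For 18 members the 4 differences lay within 0.5 of each other, and for 26 they lay over 3 apart.

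Across the 195 members, the differences at grain filling in the 2 cultivars had a Pearson correlation of 0.865 (Spearman 0.829), and those at heading 0.611 (0.576). Between stages the correlation was 0.583 (0.523) in TAM 112 and 0.413 (0.36) in TAM 111. These correlations have 195 points that share the same arrays and were all kept at or above 1 by the choice of members, so they describe the set and carry no test. 

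**Figure D3:**
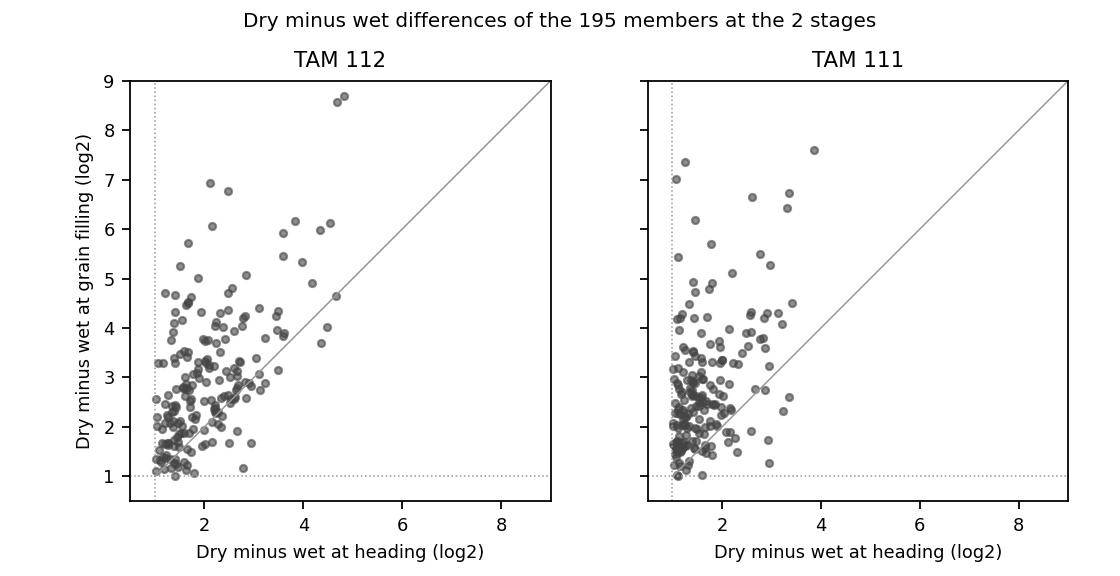
Dry minus wet difference on the log2 scale of each of the 195 members at heading (horizontal axis) and at grain filling (vertical axis), in TAM 112 (left) and TAM 111 (right); the diagonal marks equal differences and the dotted lines the threshold of 1. Most points lie above the diagonal (157 in TAM 112 and 172 in TAM 111), and the differences reach 8.69 and 7.60 at grain filling, against 4.82 and 3.86 at heading.

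Some members that leaned to grain filling were near background in most arrays at heading. Ta.14617.1.S1_at had signals of 15438, 9305 and 6586 in dry leaves, against 82.9, 80.4 and 48.3 in wet leaves of TAM 112 at grain filling and 14599, 11564 and 7357 in dry leaves, against 60.9, 78.1 and 78.1 in wet leaves of TAM 111 at grain filling. At heading its signals in TAM 112 were 1137, 175 and 49.9 in dry leaves, against 24.5, 43.1 and 70.9 in wet leaves, and in TAM 111 they were 43.9, 101 and 186 in dry leaves, against 35.1, 31 and 54.3 in wet leaves. Dry and wet arrays overlapped at heading in both cultivars and were far apart at grain filling. The fold changes were 122 in TAM 112 and 129 in TAM 111 at grain filling, and 4.31 in TAM 112 (1.96 without replicate 1) and 2.11 in TAM 111 at heading.

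Ta.9389.1.S1_at had the largest difference of all members, at grain filling in TAM 112. Its signals there were 6615, 10477 and 8187 in dry leaves, against 9.19, 3.09 and 14.3 in wet leaves, and in TAM 111 at grain filling they were 2594, 4412 and 1754 in dry leaves, against 2.73, 9.79 and 2.92 in wet leaves. In dry TAM 112 at heading they were 3769, 125 and 138, and in dry TAM 111 at heading 81.2, 25.8 and 69, against 2.15, 4.92 and 3.17 and 17.7, 8.09 and 24.1 in the wet leaves of each. All wet arrays lay below the filter level. With wet leaves this near background the fold change at grain filling in TAM 112 was 414 with the pseudocount of 11.71, 962 with 1 and 150.0 with 46.84, and Ta.2638.1.S1_at was the larger of the 2 with 46.84, at 223. At heading it was 28.2 in TAM 112, or 9.48 without replicate 1, and 2.38 in TAM 111.

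TaAffx.37153.1.S1_at, Ta.20175.1.A1_at and Ta.13183.1.S1_x_at leaned the same way. TaAffx.37153.1.S1_at was 38.3-fold and 43.4-fold higher in dry leaves at grain filling in TAM 112 and TAM 111, with 2.83-fold (1.64-fold without replicate 1) and 2.15-fold at heading. Ta.20175.1.A1_at was 109-fold (53.8-fold without wet replicate 1) and 34.6-fold higher at grain filling, with 5.56-fold and 4.62-fold at heading. In 19 members the difference grew by over 2 on the log2 scale between the stages in both cultivars.

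The members that leaned to heading were fewer. Ta.1928.1.S1_at had signals of 1668, 1882 and 2721 in dry leaves, against 576, 1847 and 684 in wet leaves of TAM 112 at grain filling and 2322, 1593 and 3352 in dry leaves, against 488, 654 and 692 in wet leaves of TAM 111 at grain filling. At heading its signals in TAM 112 were 6385, 8212 and 5191 in dry leaves, against 1146, 498 and 1397 in wet leaves, and in TAM 111 they were 5927, 3987 and 7449 in dry leaves, against 1879, 465 and 876 in wet leaves. Its dry signals were lower at grain filling than at heading in every array of both cultivars, and at grain filling dry and wet arrays of TAM 112 overlapped. The fold change was 2.25 in TAM 112 and 3.77 in TAM 111 at grain filling, and 6.9 in TAM 112 and 6.05 in TAM 111 at heading.

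Ta.1022.2.S1_a_at and Ta.1022.2.S1_x_at, TaAffx.95414.1.S1_at and TaAffx.12445.1.A1_at had higher dry signals at grain filling than at heading, and their wet signals were higher there by a larger factor. Ta.1022.2.S1_a_at had signals of 1151, 1444 and 1517 in dry leaves, against 89.3, 429.6 and 250.4 in wet leaves of TAM 111 at grain filling, and 209.6, 320.2 and 378 in dry leaves, against 37.9, 15 and 8.13 in wet leaves of TAM 111 at heading. All its arrays at grain filling in TAM 111 other than wet replicate 1 and replicate 3 were above the dry arrays at heading. Its fold change was 3.22 in TAM 112 and 6.05 in TAM 111 at grain filling, and 7.74 in TAM 112 and 10.3 in TAM 111 at heading. Ta.23397.2.S1_x_at was dim at grain filling, with dry signals of 64.3, 10.2 and 100.1 in TAM 112 at grain filling, against 4.43, 11 and 34.6 in wet leaves, which overlapped. TaAffx.95414.1.S1_at also overlapped between dry and wet leaves of TAM 112 at both stages, with a standard error of 0.75 on the log2 scale.

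The 24 members with a gene were described because the annotation pairs them, after their values had been seen. Their genes had 32 probe sets on the array, of which 24 were members, 7 were tested and missed the thresholds, and 1 did not pass the signal filter. All 7 tested probe sets that were no members were higher in dry than in wet leaves in all 4 settings. For 5 genes more than 1 probe set was a member.

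LOC542804, measured by Ta.28605.1.S1_at, ranked highest among the paired genes by its smallest difference. In TAM 112 at grain filling its signals were 1499, 761 and 1579 in dry leaves, against 64.2, 53.8 and 33.5 in wet leaves, and in TAM 111 at grain filling they were 1973, 1334 and 1959 in dry leaves, against 92.1, 74.3 and 64.5 in wet leaves. At heading they were 644, 291 and 466 in dry leaves, against 30.1, 24 and 32.7 in wet leaves of TAM 112, and 714, 267 and 537 in dry leaves, against 28.4, 53.6 and 51.3 in wet leaves of TAM 111. The cultivars overlapped in every condition except wet leaves at grain filling, where all TAM 111 arrays were higher. The fold changes were 20.2 and 19.8 at grain filling and 11.3 and 8.76 at heading, TAM 112 before TAM 111.

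LOC542888 had 2 member probe sets. Ta.13255.1.S1_at had signals of 26456, 23364 and 24936 in dry leaves, against 336, 614 and 313 in wet leaves of TAM 112 at grain filling, and 17319, 16972 and 14465 in dry leaves, against 436, 236 and 404 in wet leaves of TAM 111 at grain filling. At heading they were 17693, 2929 and 3501 in dry leaves, against 545, 374 and 478 in wet leaves of TAM 112, and 2465, 1957 and 4415 in dry leaves, against 393, 286 and 556 in wet leaves of TAM 111. Wet arrays lay within a narrow range throughout, and replicate 1 of dry TAM 112 at heading was close to the level of dry TAM 111 at grain filling. The fold change was 60.3 and 45.2 at grain filling in TAM 112 and TAM 111, and 12 (6.81 without replicate 1) and 6.8 at heading. The other probe set, Ta.2787.1.S1_at, gave smaller fold changes of 22.6 and 8.16 at grain filling and 3.19 (1.5 without replicate 1) and 2.92 at heading.

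LOC542846 was the paired gene with the largest fold change at heading. Its probe set Ta.261.1.S1_at was 20.5-fold higher in dry leaves of TAM 112 at heading, or 12.7-fold without replicate 1 and 45.4-fold without replicate 3, and 5.0-fold in TAM 111. Its signals in TAM 112 at grain filling were 780.1, 419 and 596 in dry leaves, against 26.8, 41.6 and 34.6 in wet leaves, and in TAM 112 at heading 5133, 3667 and 390.1 in dry leaves, against 47.7, 70.7 and 168 in wet leaves. In dry TAM 112 leaves, 2 of the 3 arrays at heading were brighter than all 3 at grain filling. The second probe set of this gene, Ta.28758.1.S1_at, gave fold changes of 4.18 and 3.97 at grain filling and 4.87 and 3.15 at heading, TAM 112 before TAM 111.

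LOC542799 stood out by its stage pattern, with fold changes on Ta.13183.1.S1_s_at of 66.9 and 22.3 at grain filling and 4.43 (2.59 without replicate 1) and 2.51 at heading. Its second probe set, Ta.13183.1.S1_x_at, had signals of 13356, 12041 and 13231 in dry leaves, against 279, 235 and 195 in wet leaves of TAM 112 at grain filling and 5000.1, 938 and 810.2 in dry leaves, against 524, 373 and 590.1 in wet leaves of TAM 112 at heading. The dry arrays at grain filling were the highest by far, and replicate 1 at heading lay between them and the rest. LOC780599 had 3 members of the cluster Ta.13070, whose fold changes ran from 5.75 to 6.89 in TAM 112 at grain filling, and those in TAM 111 at heading ran from 2.54 to 2.91. A probe set of that gene that did not pass the filter, Ta.13070.3.S1_at, had values near background with no such difference. LOC780664 had 3 members of the cluster Ta.5818, with fold changes from 2.4 to 4.57 over all settings, and another probe set, Ta.5818.3.S1_at, missed the threshold with 1.87-fold in TAM 111 at heading.

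Among the genes with 1 member, LOC543477 (Ta.201.1.S1_at) differed most between the cultivars at grain filling, with 18.5-fold in TAM 112 and 6.15-fold in TAM 111. Its dry signals in TAM 112 were 823, 274 and 3472, and the fold change there was 9.6 without replicate 3 and 33.6 without replicate 2. LOC543421, LOC542835, LOC543368 and LOC543404 were between 5.07-fold and 9.11-fold higher in dry leaves at grain filling in both cultivars and between 3.04-fold and 9.40-fold at heading. Small differences were those of LOC542820, LOC542803, LOC100037571 and LOC542792, which lay between 2.26-fold and 4.0-fold in every setting. LOC606366 and LOC606352 were at the threshold, with 2.01-fold in TAM 111 at heading for the first and in TAM 111 at grain filling for the second, and their other tested probe sets missed it in at least 1 setting. These genes were paired with 3 and 2 such probe sets. For LOC606352, leaving out dry replicate 1 of TAM 111 at grain filling gave 1.24-fold there.

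**Figure D4:**
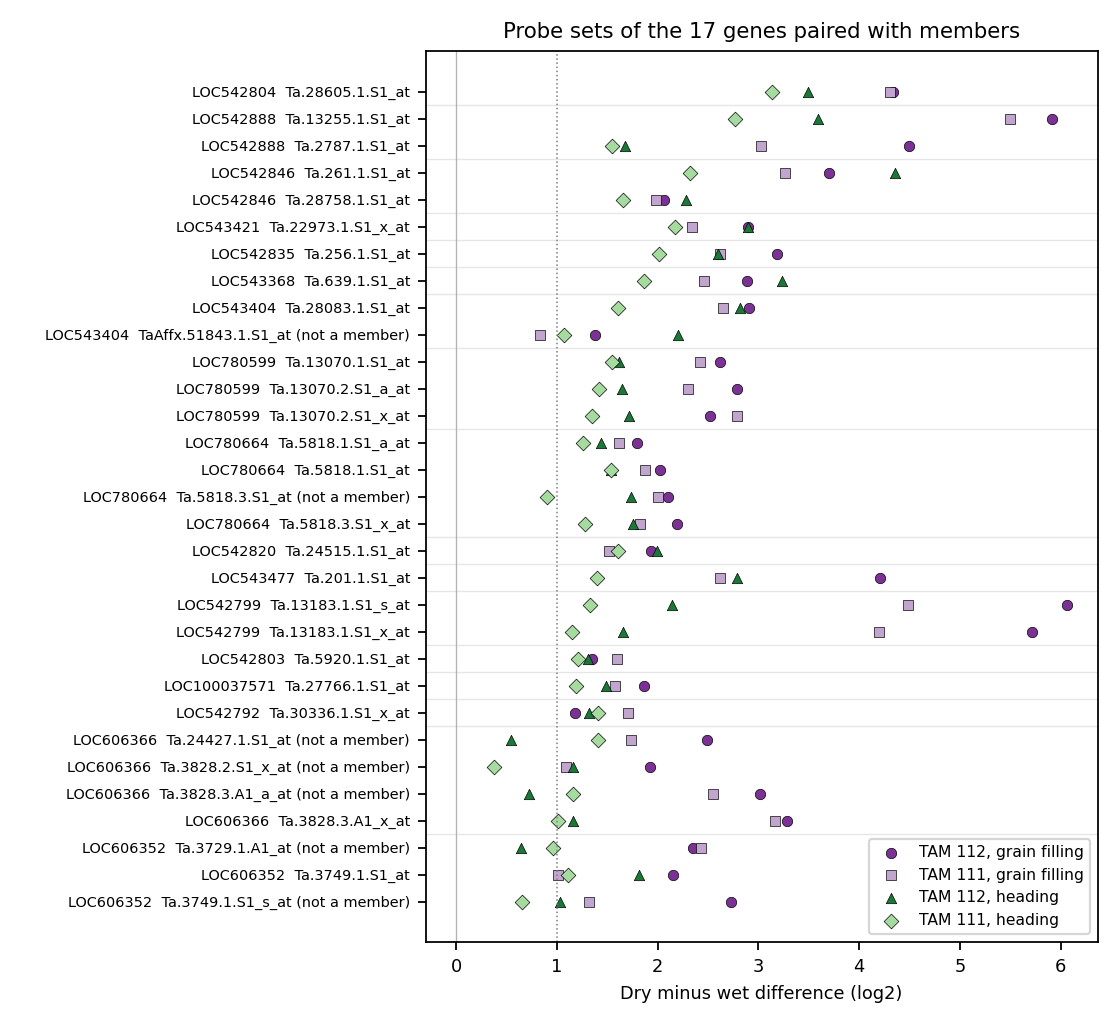
Dry minus wet difference on the log2 scale in each of the 4 settings for the probe sets of the 17 genes paired with members, including 7 tested probe sets that were no members; the dotted line marks the threshold of 1. All symbols lie to the right of 0, and those of LOC542888 and LOC542799 at grain filling reach farthest to the right, at 5.91 and 6.06 in TAM 112.

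Members often came from the same sequence cluster, so they are not 195 separate genes. They fell into 163 clusters by the first part of their identifier, and 23 clusters held more than 1 member, with 55 members in all. The clusters Ta.4494 and Ta.5818 held 4 members each. In Ta.4494 the differences of its members ran from 2.45 to 2.64 in TAM 112 at grain filling, and those in TAM 111 at heading ran from 1.22 to 2.16. Tested probe sets of the same clusters that were no members numbered 56, and 41 of these (73.2%) were higher in dry leaves in all 4 settings, as were 14.6% of all tested probe sets. Their median difference was 1.84 in TAM 112 at grain filling, 1.61 in TAM 111 at grain filling, 0.83 in TAM 112 at heading and 0.66 in TAM 111 at heading. Since probes of a cluster can share sequence, this is a description.

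Comparisons averaged over dry and wet leaves are not the differences that chose the members, although the dry signals enter both. These comparisons were tested with limma over all 37516 probe sets, a call being a Benjamini-Hochberg adjusted p below 0.05. The question was whether the members also differed between cultivars or stages. In TAM 112 against TAM 111 at heading, 7 members were higher, where 2.01% of all tested probe sets were called higher, and 1 member was lower, where 2.88% were. These are shares of 3.59% and 0.51% of the members. At grain filling 14 members (7.18%) were higher in TAM 112, beside 4.21% of all tested probe sets, and 2 members (1.03%) were lower, beside 6.67%. The median cultivar difference of the members was 0.30 at heading and 0.23 at grain filling on the log2 scale, and 152 and 146 of them were above 0. The calls at heading were few and unsteady: their number, 8 in all, was between 3 and 14 when 1 array was left out. Without replicate 1 of dry TAM 112 there were 3 calls, and 0 of them were higher in TAM 112. There were also 3 calls without replicate 3 of wet TAM 112, of dry TAM 111 or of wet TAM 111, and 2, 3 and 3 of these were higher in TAM 112. Of the 5 calls left without the 4 arrays numbered 2 of TAM 111, 1 was higher in TAM 112. So the lean of the calls toward TAM 112 at heading depended on replicate 1 of dry TAM 112 and on the arrays numbered 2. The median difference at heading was 0.15 without replicate 1 of dry TAM 112, with 127 members above 0. At grain filling the 16 calls became 9 without replicate 1 or 2 of dry TAM 112, replicate 2 of wet TAM 112 or replicate 3 of dry TAM 111.

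The clearest cultivar difference was that of Ta.28327.1.S1_x_at at grain filling. Its dry signals were 2869, 3519.5 and 2293 in TAM 112 and 838, 1387 and 829.7 in TAM 111, and its wet signals were 50.1, 257 and 82.9 in TAM 112 and 2.13, 4.82 and 19.3 in TAM 111. All TAM 112 arrays were above all TAM 111 arrays of the same water treatment. Averaged over water it was 2.06 ± 0.32 higher in TAM 112 on the log2 scale (SE; limma adjusted p = 0.00012), and the call held in every alternative tried. At heading the difference was 1.19 ± 0.32 (limma adjusted p = 0.0279), higher in 6 of 6 arrays than the TAM 111 mean, and that call was lost in 11 of 35 alternatives, with an adjusted p of up to 0.0991.

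Ta.7931.2.S1_a_at went the other way at grain filling. Its dry signals were 484, 191 and 388 in TAM 112 and 1874, 1780.0 and 3139 in TAM 111, and its wet signals were 5.13, 18.2 and 1.94 in TAM 112 and 184, 32.8 and 188 in TAM 111. Under neither treatment did the cultivars overlap. The difference was -2.67 ± 0.50 (limma adjusted p = 0.00089). Dry minus wet at this stage was 4.17 in TAM 112 and 4.19 in TAM 111. Which cultivar had the larger fold change depended on the pseudocount: with 1 it was 47.2 in TAM 112 and 20.7 in TAM 111, and with 46.84 it was 6.93 in TAM 112 and 13.7 in TAM 111.

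TaAffx.70216.1.S1_s_at, Ta.8108.2.S1_at and TaAffx.16775.1.A1_at were also higher in TAM 112 at grain filling. TaAffx.70216.1.S1_s_at had dry signals of 3734, 4784 and 4176 in TAM 112 and 1552, 2224 and 1863 in TAM 111, a difference averaged over water of 1.13 ± 0.26 (limma adjusted p = 0.00521). Ta.8108.2.S1_at was dim, with dry signals of 276, 164 and 239 in TAM 112 and 38.8, 74.7 and 63.9 in TAM 111, and a difference of 1.50 ± 0.36 (limma adjusted p = 0.00859). Outside dry TAM 112 at grain filling, its signal was above 69 only on dry replicate 1 of TAM 112 at heading (191) and on the array at 74.7. It therefore passed the signal filter only through the group in which it was called higher, and its call is no separate support. TaAffx.16775.1.A1_at had a difference of 1.0 ± 0.24 (limma adjusted p = 0.0081) that was larger in dry than in wet leaves. In wet leaves of that probe set the cultivars overlapped, and 5 of 6 TAM 112 arrays were above the TAM 111 mean of their treatment. These 3 calls held in every alternative in which they could be fitted. Ta.2822.2.S1_at was lower in TAM 112 by 0.97 ± 0.25 (limma adjusted p = 0.0152), with an adjusted p of 0.0625 without the 4 arrays numbered 2 of TAM 111.

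At heading the calls with the smallest p other than that of Ta.28327.1.S1_x_at were those of Ta.29375.1.S1_at, TaAffx.70216.1.S1_s_at and TaAffx.65575.1.A1_at, all higher in TAM 112. Ta.29375.1.S1_at had dry signals of 476, 199 and 234 in TAM 112 and 109, 71.7 and 150.3 in TAM 111, and wet signals of 67.8, 51.9 and 77 in TAM 112 and 23, 26.6 and 34.3 in TAM 111, which did not overlap. Its difference was 1.14 ± 0.28 (limma adjusted p = 0.0146), and 0.95 with an adjusted p of 0.0567 without replicate 1 of dry TAM 112. TaAffx.70216.1.S1_s_at had 1.0 ± 0.26 (limma adjusted p = 0.021; up to 0.0741 in the alternatives) and TaAffx.65575.1.A1_at 1.30 ± 0.35 (limma adjusted p = 0.0294; up to 0.0945). The single member called lower, TaAffx.59613.1.S1_at, had -0.77 ± 0.21 (limma adjusted p = 0.034; up to 0.117). Those 3 calls were lost in 8, 9 and 9 of 35 alternatives, among them leaving out any 1 of several arrays of both cultivars, although all 6 TAM 112 arrays lay beyond the TAM 111 mean of their treatment. Ta.28327.1.S1_x_at, Ta.29375.1.S1_at and TaAffx.70216.1.S1_s_at were the 3 members called higher in TAM 112 at both stages, and the share of all tested probe sets so called is not given here.

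Stage differences were much more common. Averaged over water, 89 members (45.6%) were higher at grain filling than at heading in TAM 112, where 13.1% of all tested probe sets were, and 95 members (48.7%) in TAM 111, where 8.06% were. Lower at grain filling were 15 members (7.69%) in TAM 112, beside 16.3% of all tested probe sets, and 9 (4.62%) in TAM 111, beside 8.6%. The same members were called higher in both cultivars in 82 cases and lower in both in 7, and 0 were called with opposite signs. The shares of all tested probe sets called in both cultivars are not given here, so these counts only describe the members. The median stage difference of the members was 0.67 in TAM 112 and 0.72 in TAM 111. It was larger in dry leaves, in which the medians were 1.06 in TAM 112 and 1.16 in TAM 111, against 0.17 in wet TAM 112 and 0.26 in wet TAM 111. Dry and wet leaves enter the averaged difference with equal weight, so a member whose dry minus wet difference is larger at grain filling is also higher there on average unless its wet level is lower. The calls by stage are therefore no test apart from the dry response that chose the members. Without the 4 arrays numbered 2 of TAM 111, the 104 calls of TAM 111 in both directions became 58.

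**Figure D5:**
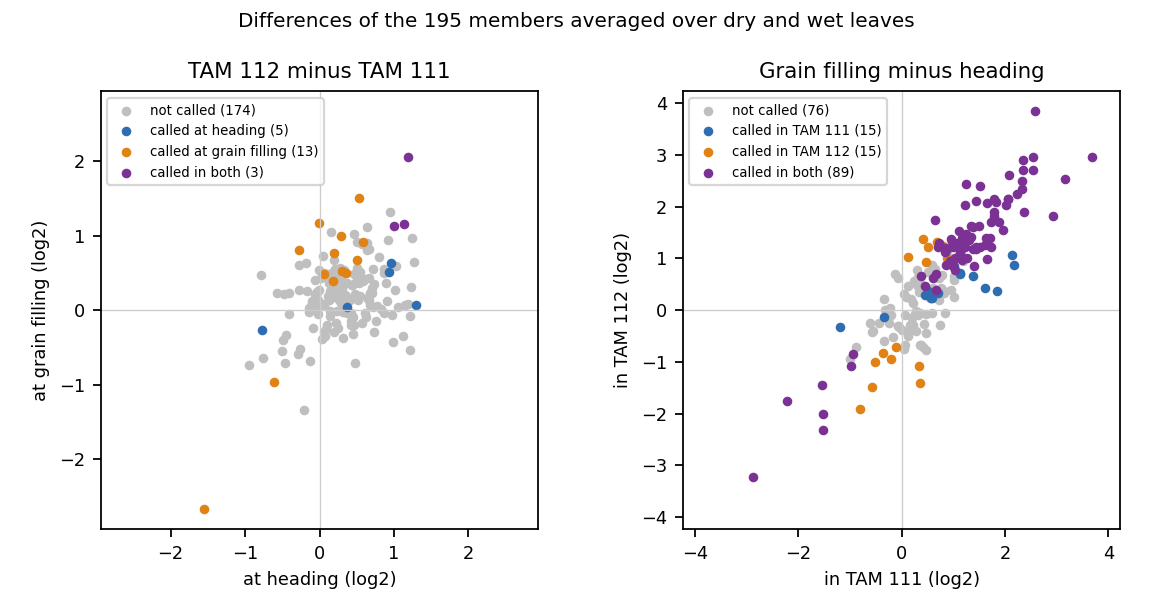
Differences of the 195 members on the log2 scale averaged over dry and wet leaves: TAM 112 minus TAM 111 at heading (horizontal) and grain filling (vertical) on the left, and grain filling minus heading in TAM 111 (horizontal) and TAM 112 (vertical) on the right, coloured by the comparisons in which limma called them. On the left 174 members are called at neither stage, and on the right 89 are called in both cultivars, 82 of them in the upper right.

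Ta.8760.1.A1_at had the smallest p for stage in both cultivars. Its dry signals in TAM 112 were 9767, 8417 and 7469 at grain filling and 2429, 1913 and 1846 at heading, and its wet signals were 1958, 1836 and 1721 at grain filling and 1008, 876 and 1112 at heading. Every array at grain filling was above every array at heading of the same treatment, and the gap was wider in dry leaves. The stage difference was 1.46 ± 0.12 in TAM 112 (limma adjusted p = 3.3e-08) and 1.25 ± 0.12 in TAM 111 (limma adjusted p = 5.0e-07).

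Ta.830.1.S1_s_at was dim at heading. In TAM 112 its signals at grain filling were 2483, 1928 and 1679.7 in dry leaves, against 173, 116 and 126 in wet leaves, and at heading they were 86.8, 108 and 28 in dry leaves, against 3.0, 9.82 and 8.49 in wet leaves. All 6 of these arrays at heading, dry ones included, were below the lowest wet array at grain filling. In TAM 111 its signals were 1335, 1516 and 1038 in dry leaves, against 81.4, 128 and 122 in wet leaves at grain filling and 50.3, 91.9 and 119.7 in dry leaves, against 6.12, 63 and 59.8 in wet leaves at heading, where dry arrays at heading overlapped wet arrays at grain filling. The stage difference was 3.85 ± 0.31 in TAM 112 (limma adjusted p = 3.5e-08), and 2.59 in TAM 111. Ta.19375.1.S1_a_at and Ta.4494.3.S1_x_at were higher at grain filling in TAM 112 by 2.62 ± 0.22 and 2.09 ± 0.18. In TAM 111 Ta.26177.2.S1_a_at, Ta.4494.3.S1_x_at and TaAffx.12445.1.A1_at were higher by 1.49 ± 0.14, 1.82 ± 0.18 and 2.06 ± 0.22. In each of these, dry and wet arrays at grain filling did not overlap with those of the same treatment at heading, and the calls held in all alternatives.

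A few members were higher at heading in spite of their dry response. Ta.30336.1.S1_x_at, the probe set of LOC542792, had dry signals of 88.6, 129 and 7.03 at grain filling and 554, 657 and 643 at heading in TAM 112, and wet signals of 22.5, 28.7 and 4.73 and 286, 269 and 178 at the same stages. In TAM 111 its dry signals were 89, 93 and 62.4 at grain filling and 511, 605 and 684 at heading. Dry leaves at grain filling were below even wet leaves at heading. The stage difference was -3.22 ± 0.36 in TAM 112 (limma adjusted p = 1.3e-06) and -2.87 ± 0.36 in TAM 111 (limma adjusted p = 1.1e-05), although the dry minus wet difference was over 1 at both stages.

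TaAffx.34778.1.S1_at had lower signals at grain filling too, by 1.08 ± 0.16 in TAM 112 and 0.98 ± 0.16 in TAM 111. Its dry signals in TAM 112 were 682, 668 and 592 at grain filling and 1610.4, 804 and 912 at heading, which did not overlap. Ta.28772.1.S1_at and Ta.13232.2.S1_at were lower in TAM 112 with differences of -0.83 ± 0.15 and -2.33 ± 0.50, and Ta.28983.1.S1_at and TaAffx.67846.1.A1_at in TAM 111 with -2.22 ± 0.42 and -1.55 ± 0.32. For TaAffx.67846.1.A1_at the adjusted p was 0.00172 in limma, and 0.05 without the 4 arrays numbered 2 of TAM 111.

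Whether the stage difference of a member differed between the cultivars was tested as an interaction in limma. It was called for 0 members and for 1 of all tested probe sets (0.00267%). An unadjusted p below 0.05 was reached by 14 of the 195 members, beside 8.75% of all tested probe sets. In total 72 members were called in none of the 5 comparisons, which average over water and do not show how the dry minus wet difference changed with stage. The matching share of all tested probe sets is not given here.

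Genes with a name that are known for the response of plants to drying are few on the annotated part of the array. That 0 of them were members follows from the choice of members. Of their probe sets, 4 met the thresholds and were left out by identifier. Of the probe sets for late embryogenesis abundant proteins and dehydrins, 3 were tested. All 3 were called higher in dry leaves of TAM 112 and TAM 111 at grain filling and of TAM 112 at heading, where 13.5%, 9.32% and 1.66% of all tested probe sets were, and 0 were in TAM 111 at heading, where 1.72% were. Of these, 2 measure Rab15 and met the thresholds of the core set, but were left out by identifier. The third measures LEA1, whose product belongs to the late embryogenesis abundant proteins, and its difference was 6.55 in TAM 112 at grain filling, and 0.31 in TAM 111 at heading. Of 4 probe sets for fructan exohydrolases, enzymes that release fructose from stored fructan, 3 were higher in dry leaves at grain filling in each cultivar. At heading 1 of them was higher in each cultivar. Among these 4, 2 met the thresholds of the core set and were also left out by identifier. The small heat shock protein gene hsp16.9A was higher at grain filling in both cultivars, and the tested probe sets for a peroxidase and a lipid transfer protein, 2 of each, were called in 0 settings. No tested probe set was matched to the lists for abscisic acid, transcription factors or senescence.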

How the data were processed

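Each of 24 flag leaf RNA samples was hybridised to an Affymetrix wheat array of its own. Deposited were MAS5 signals, a linear intensity for every probe set, which the authors had scaled per the submitters' processing notes; the MAS5 version is not given in the sources used here, and no detection calls or raw intensities were used. The members and lists were chosen with earlier results of these data known.

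Signals were analysed as log2(signal + 11.71), the constant being the 20th percentile of all values without control probe sets, and the filter level of 69 their median. The 8 group means were estimated by limma 3.58.1 (R 4.3.3) over all 24 arrays, and eBayes moderated the variances along a trend (16 residual degrees of freedom, at least 5.53 prior). Errors of differences are standard errors from limma. Calls used a Benjamini-Hochberg adjusted p below 0.05 over 37516 probe sets. Comparisons of cultivars and stages were averaged over water, which in this balanced design is orthogonal to the dry minus wet differences of the rule. This concerns their errors only, since the dry signals enter both. The fit was tested on simulated data.

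Described by name were the 12 members with the largest smallest difference, the 8 brightest, up to 4 members with the smallest p per comparison and direction, 3 probe sets on each side of the threshold, the 6 members leaning most to each stage, and members with a named gene, of which there were 0. The 4 probe sets left out by identifier measure named genes and were not counted as members. The paired genes with locus numbers were added after their values were seen. The number of arrays limits the precision. Promoter and protein sequences were not used here.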

Additional observations from a re-analysis of the deposited data

How the results depend on the processing

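The results were recomputed with pseudocounts of 1 and 46.84, quantile normalization, a filter at the upper quartile of all signals (385.6) or none, array weights, no variance trend, only the arrays compared, the replicate number as a block, without each array in turn, and without 3 or 4 TAM 111 arrays numbered 2. Array weights, the variance trend, the block and the choice of arrays compared do not enter the number of members, and the interaction needs all groups. None of the 27 member tests described by name changed sign. The number of members, 195, was 172 to 214 over the 24 omissions of 1 array, 196 after quantile normalization, 163 with the stricter filter, 245 with a pseudocount of 1 and 133 with 46.84. The 8 members called between cultivars at heading were the least stable count: it was 2 with no variance trend, 4 with only the arrays compared, 5 without the 4 arrays numbered 2 of TAM 111, and 3 to 14 over the omissions of 1 array. Its lean turned: 7 of the 8 were higher in TAM 112, against 0 of 3 without replicate 1 of dry TAM 112 at heading, 2 of 6 without the 3 intermediate arrays and 1 of 5 without the 4 numbered 2. At grain filling the 16 calls became 9 to 21 over those omissions. The calls by stage were 85 to 109 in TAM 112 and 86 to 107 in TAM 111 over the omissions, beside 104 each with all arrays, and in TAM 111 they were 73 without the 3 intermediate arrays and 58 without all 4 arrays numbered 2. The cause of these changes was not tested, although the fits without arrays have fewer samples. The interaction called 0 members in every setting fitted. With the replicate number as a block the calls were 7 and 16 between cultivars at heading and grain filling, 107 and 105 by stage in TAM 112 and TAM 111, and 0 for the interaction. Over 84 same-numbered pairs the correlation of deviations from group means ranged from -0.09 to 0.22 with a median of 0.02. It was above 0.1 for 7 pairs. Among them were replicates 2 of TAM 111, with 0.22 between wet leaves at heading and at grain filling. Dry and wet leaves at heading had 0.18, and dry leaves at heading and wet leaves at grain filling 0.16. Pairs with different numbers were not set beside these, so whether the numbers pair the arrays was not tested. Of the 27 member tests described by name, 20 kept their call in every alternative. Signals below 69 lie near background, which limits the fold changes of members that are dim in wet leaves.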
